A study of Homo sapiens with 4 samples.

Results

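The centromere, kinetochore and spindle checkpoint genes described here are 48 genes, picked by name, out of 23444 gene entries in the deposited tables. All 48 names were found once each in the count table and in the FPKM table, and all 48 passed the filter on low counts. U87-MG, a long-established human glioblastoma line, was the source of RNA for 4 sequencing libraries. The control group, shCON, has 2 libraries of cells with a negative control hairpin, and the other group, shMAGED2, has 2 libraries of cells with a short hairpin RNA against MAGED2, an X-linked gene of the melanoma antigen family. Both groups are the same line and both carry a hairpin. The series design gives the knockdown as stable, whereas the treatment protocol in the labels names ZDHHC15 as the hairpin target, transient transfection and harvest at 36 h, and neither gives the number of hairpins or clones.

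Centromeres are the chromosome regions at which spindle microtubules pull in mitosis. The histone variant CENP-A marks them, an inner set of proteins (the constitutive centromere-associated network, CCAN) binds that chromatin, and an outer set (the KMN network of KNL1, MIS12 and NDC80 complexes) binds the microtubules. The spindle checkpoint signals from kinetochores that are not yet attached and holds the cell before anaphase, and the chromosomal passenger complex corrects wrong attachments. Many of these genes are transcribed mainly in G2 and mitosis, so their RNA is abundant in dividing cell populations.

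Total counts were 28673774 to 36234336 per library. MAGED2 was at 175 and 178 CPM (counts relative to the scaled library total) in shCON 1 and 2 and at 17.9 and 21.7 in shMAGED2 1 and 2, while no library had a count of ZDHHC15 (0 counts, an upper limit of 0.0828 to 0.105 CPM from 3 counts, counting error only). The log2 change of MAGED2 was -3.16 (SE 0.13; adjusted p = 0.000654, edgeR's quasi-likelihood test with p-values adjusted by Benjamini-Hochberg over all genes, as for every adjusted p below unless another tool is named). Vimentin (VIM), a filament protein of glioma and mesenchymal cells, was at 7577 to 8802 CPM, but the glial markers GFAP (0.951 to 3.04), S100B (0 to 0.401) and SOX2 (0 to 0.115) were low, so these markers give the glial label little backing. Among the 6 neural and glial markers, nestin (NES), a filament protein of neural progenitors, rose from 4.73 and 5.66 to 19.3 and 18.8 CPM (log2 1.88, SE 0.18, adjusted p = 0.00200), and OLIG2, a factor of the oligodendrocyte lineage, fell from 5.16 and 5.76 to 1.77 and 2.21 (log2 -1.45, SE 0.27, adjusted p = 0.0158). Their part in the changes below was not tested. Of 5 leukocyte, 4 endothelial and 4 epithelial markers, 3, 2 and 2 passed the filter on low counts, and the smallest adjusted p among these was 0.0516 (VWF). The leukocyte list summed to 464.5 and 459 CPM in shCON and to 603 and 380.3 in shMAGED2, nearly all of it CD68, a lysosomal protein used as a macrophage marker (463 and 457.5 against 602 and 380.0), while AIF1 had 0 counts in all libraries and PTPRC was at most 0.860. The endothelial list summed to 1.75 and 2.90 CPM against 2.716 and 1.74, and the epithelial list to 3.61 and 4.37 against 2.41 and 1.80, mostly CLDN4, with CDH1 at 0 counts in all libraries. Mitochondrially encoded genes took 3.92% and 3.90% of counts in shCON and 10.1% and 4.87% in shMAGED2 1 and 2, and with these genes removed the counts of members that rose (42) and fell (1) were as with them. The shMAGED2 pair differed more (chi-square per degree of freedom 95.65) than the shCON pair (7.61). No label says that replicates were separate cultures, so the spread behind the p-values may be technical.

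Promoter sequence is shown for 5 members whose start window holds a match to a mitotic element. They are among the members given with fullest values, as is CENPF, which also holds a match but is not printed. Many genes of G2 and mitosis carry near their start a short stretch named the cell cycle genes homology region. That stretch is bound by the DREAM and MuvB complexes, and it occurs together with CCAAT boxes, which bind NF-Y. RefSeq windows (GRCh38.p14, 250 bases before to 50 after a start) were found for 38 of the 48 genes; BIRC5, BUB3, CENPH, CENPJ, CENPL, CENPM, KNL1, KNTC1, MIS18A and TTK had none. The homology element was searched as TTTGAA or TTCGAA on both strands. It was found in the windows of 21 of 38 members (55.3%) and of 5336 of 27305 genes in the RefSeq table (19.5%). Counting only matches that begin from 50 bases before the start to 49 after it, 18 of 38 members (47.4%) and 6.24% of all genes had one. CCAAT, searched on both strands, was present for 25 of 38 members (65.8%) and 39.7% of all genes, and both elements for 15 members (39.5%) and 9.02% of all. The E2F spellings TTTGGCGC, TTTCGCGC and TTTCCCGC, which can lie over one another, were found for 4 of 38 members (10.5%) and 3.30% of all.

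The stretches below run 5′ to 3′ along the gene's strand, with the homology match (TTTGAA or TTCGAA, or the reverse complement TTCAAA) and the CCAAT boxes (CCAAT or ATTGG) in capitals. They show BUB1, SGO1, ZWINT and HJURP, which rose, from 120 bases before the start to 29 after it, and ZW10, which did not pass the test, from 250 to 101 bases before. The positions in GRCh38.p14, all on the minus strand, are chr2:110678034-110678183 for BUB1, chr3:20186177-20186326 for SGO1, chr10:56361230-56361379 for ZWINT, chr2:233854506-233854655 for HJURP and chr11:113773793-113773942 for ZW10.
BUB1: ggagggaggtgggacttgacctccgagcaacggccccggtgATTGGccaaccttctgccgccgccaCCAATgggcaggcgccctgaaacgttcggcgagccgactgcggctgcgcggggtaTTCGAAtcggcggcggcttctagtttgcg
SGO1: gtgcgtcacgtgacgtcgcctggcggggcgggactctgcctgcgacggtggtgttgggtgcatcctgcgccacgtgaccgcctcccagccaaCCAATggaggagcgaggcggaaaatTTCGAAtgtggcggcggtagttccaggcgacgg
ZWINT: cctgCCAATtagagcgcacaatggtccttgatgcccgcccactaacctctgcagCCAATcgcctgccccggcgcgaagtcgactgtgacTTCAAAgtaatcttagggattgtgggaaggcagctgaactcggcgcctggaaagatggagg
HJURP: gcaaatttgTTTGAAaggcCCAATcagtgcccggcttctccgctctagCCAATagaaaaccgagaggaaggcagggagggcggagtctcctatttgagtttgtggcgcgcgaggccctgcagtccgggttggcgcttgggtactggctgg
ZW10: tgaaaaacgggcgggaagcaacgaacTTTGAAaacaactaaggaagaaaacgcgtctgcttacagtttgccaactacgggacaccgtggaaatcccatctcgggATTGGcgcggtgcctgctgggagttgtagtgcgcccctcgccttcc

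With the start base counted as 0, the homology match began at 1 in BUB1, at -3 in SGO1 and at -31 in ZWINT, but at -111 in HJURP and at -224 in ZW10. Across the 21 members with a match the median log2 change was 1.64, and 20 of them rose. Across the 17 without one it was 1.01, and 14 rose. The largest changes among these 17 were those of AURKB (1.94), SPC24 (1.83) and CENPI (1.80). MIS12, the member that fell, had CCAAT boxes and an E2F spelling but no homology match. For CCAAT the medians were 1.47 with (23 of 25 rose) and 1.48 without a box (11 of 13), and for the E2F spellings 1.23 with (3 of 4) and 1.53 without (31 of 34). Whether members with and without a match differ was not tested, and other spellings of the elements were not searched. Matches of letters are descriptions of these windows, not evidence of binding.

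**Figure D1:**
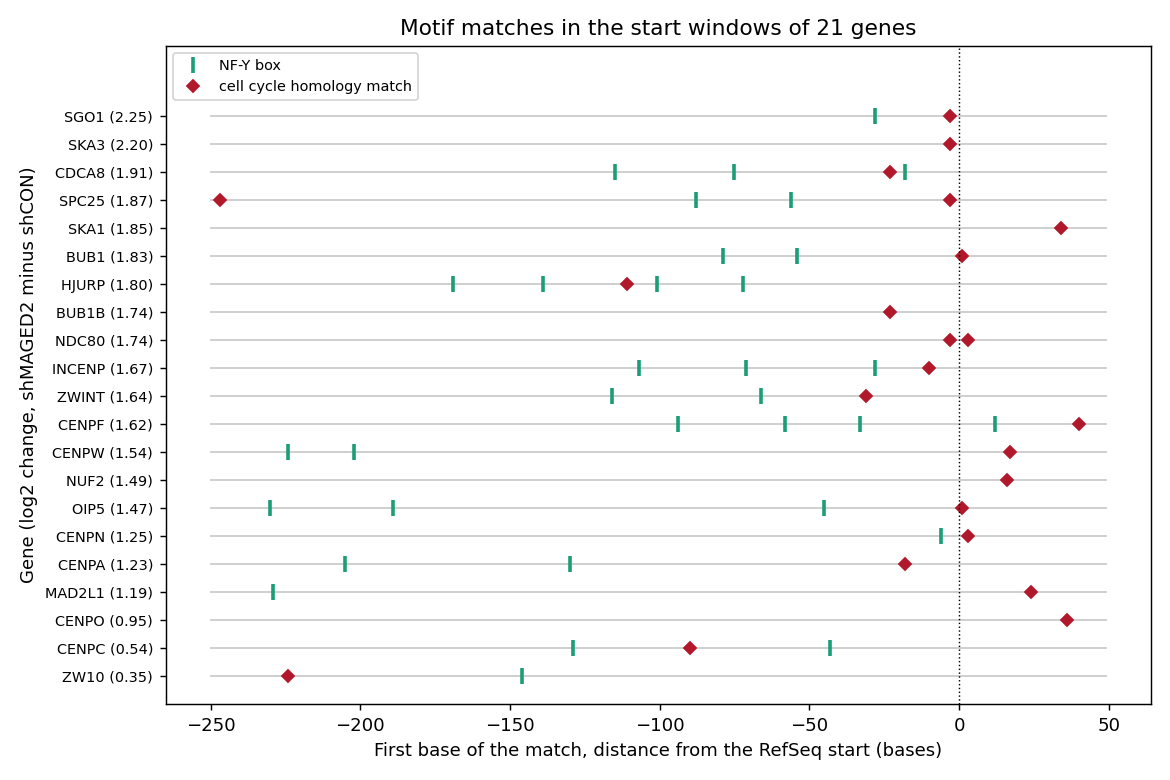
Position of the first base of each match to the homology element (diamonds) and to the CCAAT sequence, labelled NF-Y box (bars), in the start windows of the 21 members with a homology match, in bases from the RefSeq start, with genes ordered by their log2 change (in brackets). In 18 of 21 genes a diamond lies within 50 bases of the start; those of HJURP, CENPC and ZW10 lie farther upstream, as does 1 of the 2 in SPC25 (at -247), and NDC80 also has 2.

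Of the 48 members, 42 rose in shMAGED2, 1 fell and 5 did not pass the test. Of 15293 genes tested, 12.3% rose and 11.6% fell. A rise of at least 2-fold was found for 32 members, against 4.43% of all genes tested. The median log2 change of the members was 1.29, where that of all tested genes was 0.003. Summed over the members, the level was 1246 and 1280 CPM in shCON and 3014 and 2946 CPM in shMAGED2. Both shMAGED2 libraries lay above both shCON libraries for 47 members (33% of all genes) and below them for 1 (33%). In bulk RNA a larger share of cells in mitosis and more of each RNA per cell cannot be told apart. The median log2 change of the members was 1.28 without shCON replicate 1 and 1.3 without shCON replicate 2. It was 1.32 without shMAGED2 replicate 1 and 1.34 without shMAGED2 replicate 2. Each of these fits takes its spread from the group that keeps 2 libraries.

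**Figure D2:**
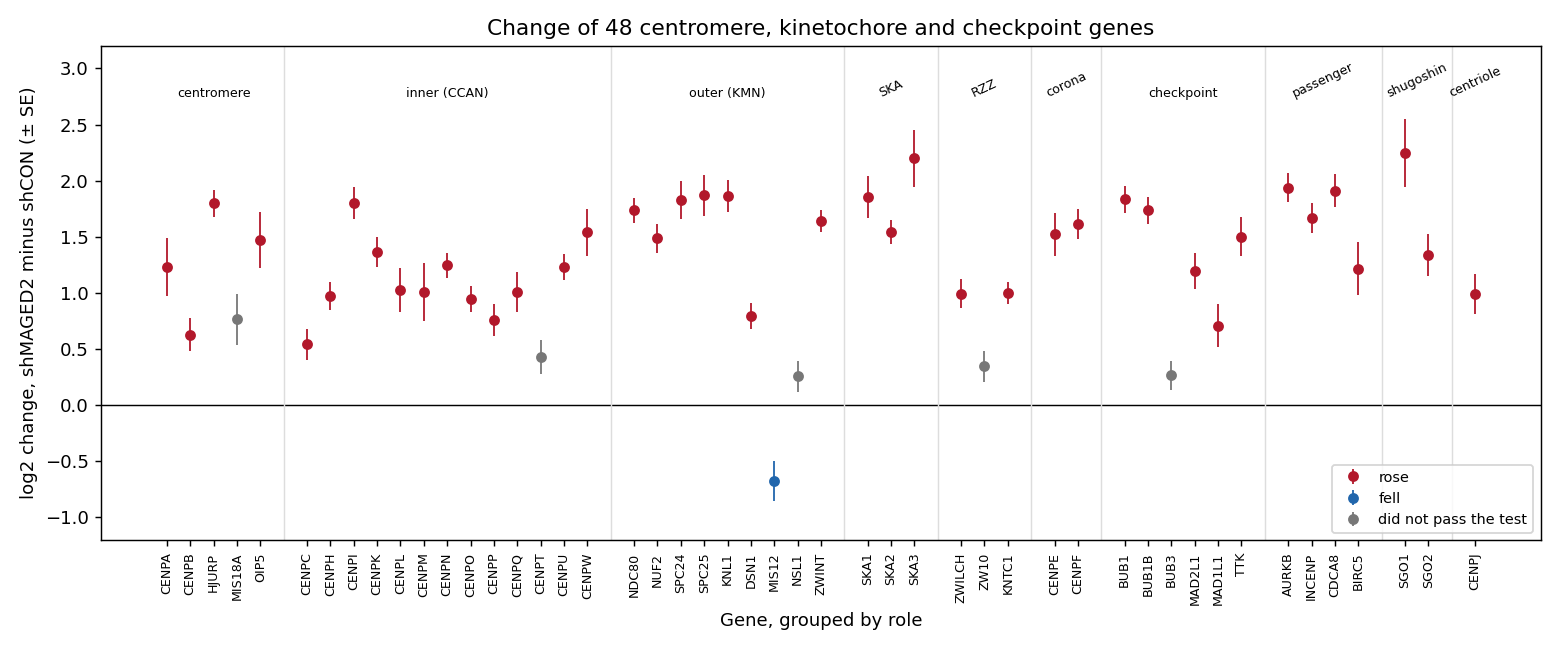
Log2 change of each of the 48 members, shMAGED2 minus shCON, as points with bars of 1 SE from the edgeR fit to 2 libraries per group, grouped by role and coloured by the test. The points lie above 0 except MIS12 at -0.68, and the highest are SGO1 (2.25) and SKA3 (2.20).

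At the centromere itself, 4 of 5 genes rose. HJURP, the chaperone that loads CENP-A, was at 27.1 and 25.2 CPM in shCON 1 and 2 and at 97.0 and 85.1 in shMAGED2 1 and 2. The groups stood well apart, and the rise was 3.48-fold (log2 1.80, SE 0.12, adjusted p = 0.000890). CENPA, the histone variant, went from 10.1 and 8.12 to 16.6 and 26.2 CPM, a rise of 1.23 (SE 0.26, adjusted p = 0.0226) with shMAGED2 1 much lower than shMAGED2 2. Its exons share 138 bases (6.96% of its exon length) with SLC35F6 on the same strand, so reads there could belong to either gene. SLC35F6 was at 67.2 and 63.5 CPM in shCON and at 56.7 and 49.6 in shMAGED2, and did not pass (log2 -0.30, SE 0.115, adjusted p = 0.116). The call for CENPA was lost without shCON replicate 2, where its change was 1.08.

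OIP5 (also called MIS18-beta), a subunit of the complex that licenses CENP-A loading, rose by 1.47 (SE 0.25) from the lowest levels of the group, 3.12 and 2.42 against 7.37 and 8.06 CPM, and missed the threshold without shCON replicate 2 (0.0624). OIP5 shares 470 exon bases (38.0% of its exon length) with the opposite-strand transcript OIP5-AS1, which was not analysed here, so reads there could belong to either. The partner of OIP5 in that complex, MIS18A, was at 7.77 and 9.92 CPM in shCON and 12.8 and 17.3 in shMAGED2. Its change did not pass (log2 0.77, SE 0.23, adjusted p = 0.0582), though it passed in 5 alternatives, among them DESeq2 (adjusted p = 0.0343). Another was the fit without shMAGED2 replicate 1 (0.97), which takes its spread from the shCON pair alone. CENPB, which binds a short box in alpha-satellite DNA, had the smallest change of the 5. It stood at 41.9 and 41.2 CPM in shCON and at 56.1 and 72.3 in shMAGED2, a rise of 0.63 (SE 0.15, adjusted p = 0.0300), and missed the threshold with library size alone (0.0621), in both FPKM fits (0.0776 and 0.0794) and without either shCON replicate (0.158 and 0.162).

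In the inner kinetochore 12 of 13 CCAN genes rose and 0 fell, with a median log2 change of 1.01. CENPI, which forms a subcomplex with CENPH, CENPK and CENPM, had the largest change. Its level was 9.29 and 9.85 CPM in shCON and 31.2 and 35.5 in shMAGED2, a 3.49-fold rise (log2 1.80, SE 0.15, adjusted p = 0.00132). The other subunits of that subcomplex rose less by point estimate, CENPK by 1.36 (SE 0.13), CENPM by 1.01 (SE 0.26) and CENPH by 0.98 (SE 0.12). Differences between members were not tested.

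CENPN and CENPL, which form the pair that touches CENP-A chromatin directly, rose by 1.25 (SE 0.11) and 1.03 (SE 0.20). CENPO, CENPP, CENPQ and CENPU, of the subcomplex that recruits the kinase PLK1, rose by 0.95, 0.76, 1.01 and 1.23. CENPW, a small histone-fold protein, rose by 1.54 (SE 0.21) from 6.45 and 5.18 to 15.1 and 18.7 CPM. Its histone-fold partner CENPT stood at 21.04 and 20.01 CPM in shCON and at 25.03 and 30.3 in shMAGED2. That change, 0.43 (SE 0.15, adjusted p = 0.0878), did not pass. Both shMAGED2 libraries lay above both shCON libraries, as they did for 33% of all genes tested. Without shMAGED2 replicate 1 the change of CENPT was 0.56, in a fit that takes its spread from the shCON pair alone. CENPC, the scaffold that links CENP-A nucleosomes to the outer kinetochore, had the smallest rise of the 12, 0.54 (SE 0.14, adjusted p = 0.0398), with the shMAGED2 mean at 27.8 ± 1.77 CPM against 19.1 ± 1.61 (SD, n = 2 each). It missed the threshold with a replicate block (0.0552), with library size alone (0.0589), in both FPKM fits (0.110 and 0.113) and without shCON replicate 1 (0.345) or 2 (0.184). Of the other CCAN genes, CENPH (0.0523), CENPL (0.125), CENPM (0.0928), CENPO (0.0513), CENPP (0.169) and CENPQ (0.106) missed it without shCON replicate 1, and CENPM (0.231) and CENPP (0.0929) without shCON replicate 2. CENPM also missed it with library size alone (0.0561).

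Among the 9 outer kinetochore genes, 7 rose, 1 fell and 1 did not pass. ZWINT, which binds KNL1 and helps to recruit the RZZ complex, had the smallest p of all members. It was at 32.4 and 32.3 CPM in shCON and at 101 and 102 in shMAGED2, so that replicates nearly coincided, and rose 3.12-fold (log2 1.64, SE 0.10, adjusted p = 0.000775). KNL1, the platform for checkpoint proteins, rose by 1.86 (SE 0.14). The 4 subunits of the NDC80 complex, the microtubule coupler, all rose, NDC80 by 1.74 (SE 0.11), NUF2 by 1.49 (SE 0.13), SPC24 by 1.83 (SE 0.17) and SPC25 by 1.87 (SE 0.18).

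The MIS12 complex, which joins the inner to the outer layer, did not move as one. DSN1 rose by 0.80 (SE 0.12), from 34.4 and 34.8 to 56.2 and 64.0 CPM, and missed the threshold without shCON replicate 1 (0.0779) or 2 (0.0603). NSL1 stood at 17.5 and 19.6 CPM in shCON and at 22.3 and 22.2 in shMAGED2 (log2 0.26, SE 0.14, adjusted p = 0.226). PMF1, the subunit of this complex that is not among the 48 and is singled out with its values known, was at 13.6 and 13.8 CPM in shCON and 18.95 and 18.5 in shMAGED2 and did not pass (log2 0.45, SE 0.14, adjusted p = 0.0699). MIS12 itself was at 43.8 and 46.1 CPM in shCON and at 23.3 and 32.8 in shMAGED2, both lower than the controls, and fell to 0.626 of the control level (log2 -0.68, SE 0.18, adjusted p = 0.0441).

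The call for MIS12 is close to the threshold and was lost with library size alone (adjusted p = 0.0558) and without shCON replicate 1 (0.143) or 2 (0.184), with changes of -0.73, -0.72 and -0.64. MIS12 (chromosome 17, 5486285 to 5490814 in hg38, plus strand) also overlaps DERL2, a gene of protein degradation at the endoplasmic reticulum, on the opposite strand. They share 301 exon bases, 9.53% of the exon length of MIS12. DERL2 was at 67.3 and 71.3 CPM in shCON and at 35.6 and 45.0 in shMAGED2, and fell by 0.78 on the log2 scale (SE 0.14, adjusted p = 0.0143). The sources used here do not state whether counting used the strand, so reads of the pair in the shared bases cannot be told apart.

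**Figure D3:**
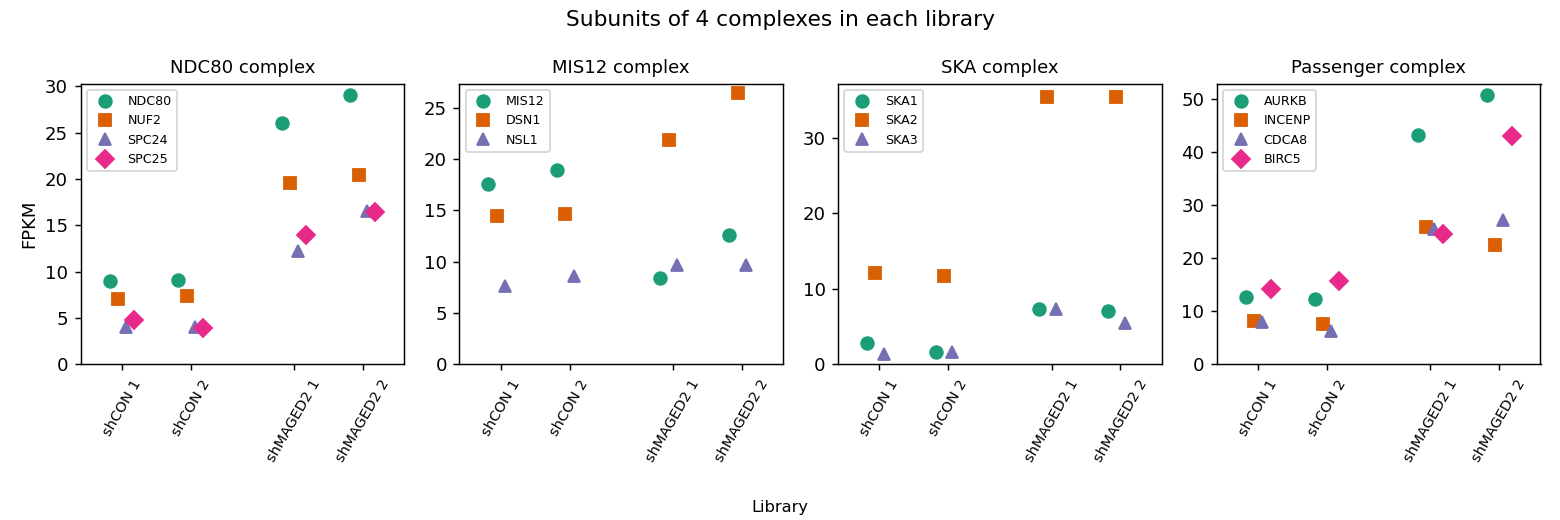
FPKM (fragments scaled by gene length and by library total, as deposited) of the subunits of the NDC80, MIS12, SKA and chromosomal passenger complexes that are members (PMF1 is not drawn) in each library, 1 point per subunit and library, on linear axes from 0. In the MIS12 panel MIS12 lies above DSN1 in both shCON libraries and below it in both shMAGED2 libraries, while in the NDC80 panel NDC80 is highest in all 4.

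Per length, in FPKM, the order of the MIS12 subunits changed with the groups. MIS12 was highest of the 4 in shCON (17.5 and 18.9) and DSN1 in shMAGED2 (21.9 and 26.4), with NSL1 at 7.65 and 8.56 against 9.63 in both and PMF1 at 12.6 and 12.8 against 16.3 and 17.0. Within the NDC80 complex, whose subunits assemble 1 to 1, the highest subunit exceeded the lowest 2.22 and 2.35 times in shCON and 2.13 and 1.76 times in shMAGED2, with NDC80 highest in each library. The KNL1 and ZWINT transcripts differed by 5.84 and 6.21 times in shCON and by 4.30 and 6.05 times in shMAGED2. Gene lengths behind the deposited FPKM values are not given, and these ratios of levels were not tested.

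The SKA complex, which keeps kinetochores on shrinking microtubule ends, rose in all 3 subunits. SKA2 was at 28.3 and 27.6 CPM in shCON and 78.4 and 84.3 in shMAGED2 (log2 1.54, SE 0.11, adjusted p = 0.00102). SKA3, at 3.84 and 4.60 CPM against 23.1 and 15.6, rose by 2.20 (SE 0.25), and SKA1 by 1.85 (SE 0.19). Both were scarcer than SKA2 in each library. In FPKM, SKA2 exceeded SKA3 9.31 and 7.22 times in shCON and 4.87 and 6.44 times in shMAGED2.

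Of the RZZ complex, which brings dynein and the MAD1-MAD2 pair to unattached kinetochores, 2 of 3 genes rose. KNTC1 (the ROD subunit) was at 40.1 and 38.7 CPM in shCON and 78.2 and 79.3 in shMAGED2, a 2.00-fold rise (log2 1.00, SE 0.10, adjusted p = 0.00229). ZWILCH rose by 0.99 (SE 0.13). ZW10, which also serves in membrane traffic between the endoplasmic reticulum and the Golgi, was at 19.3 and 17.4 CPM against 23.2 and 23.4 (log2 0.35, SE 0.14, adjusted p = 0.120).

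The large coiled-coil proteins of the fibrous corona both rose. CENPF had the highest level of all members in shMAGED2, 484 and 390 CPM, against 135 and 150 CPM in shCON (log2 1.62, SE 0.13, adjusted p = 0.00140). The kinesin CENPE, which carries chromosomes to the metaphase plate, rose by 1.52 (SE 0.19), from 32.3 and 39.3 to 120 and 85.9 CPM. In both genes shMAGED2 1 was the higher library of its pair and shCON 1 the lower of its own.

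Among 6 genes of the spindle checkpoint 5 rose. BUB1, a kinase that marks centromeric histone H2A and recruits other checkpoint proteins, was at 40.6 and 36.6 CPM in shCON and 147 and 129 in shMAGED2. This was a 3.57-fold rise (log2 1.83, SE 0.12, adjusted p = 0.000839). Its paralogue BUB1B (BUBR1), which inhibits the anaphase-promoting complex, rose by 1.74 (SE 0.12), and shares 457 exon bases (10.2%) on the same strand with the read-through gene BUB1B-PAK6, listed at 0.170 to 1.09 CPM. TTK (MPS1), the kinase that starts the signal, rose by 1.50 (SE 0.18).

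MAD2L1, which encodes MAD2, a subunit of the checkpoint's diffusible inhibitor, rose by 1.19 (SE 0.16), from 41.2 and 47.1 to 86.96 and 115 CPM. MAD1L1, the MAD1 template on which MAD2 is activated, went from 18.7 and 18.0 to 35.1 and 24.9 CPM. The rise of 0.71 (SE 0.19, adjusted p = 0.0455) was lost in limma-voom (0.0562), in both FPKM fits (0.0539 and 0.0540), with upper-quartile factors (0.0530) and without shCON replicate 1 (0.174) or 2 (0.194). BUB3, a WD-repeat partner of BUB1 and BUB1B, had the highest control level of all members per length (26.3 FPKM) and did not pass. It was at 145 and 142 CPM in shCON and at 153 and 191 in shMAGED2 (log2 0.27, SE 0.13, adjusted p = 0.182), where the 2 knockdown libraries lay farther apart than shMAGED2 1 did from the controls. Without shMAGED2 replicate 1 the change of BUB3 was 0.42 and passed, but that fit takes its spread from the shCON pair alone.

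**Figure D4:**
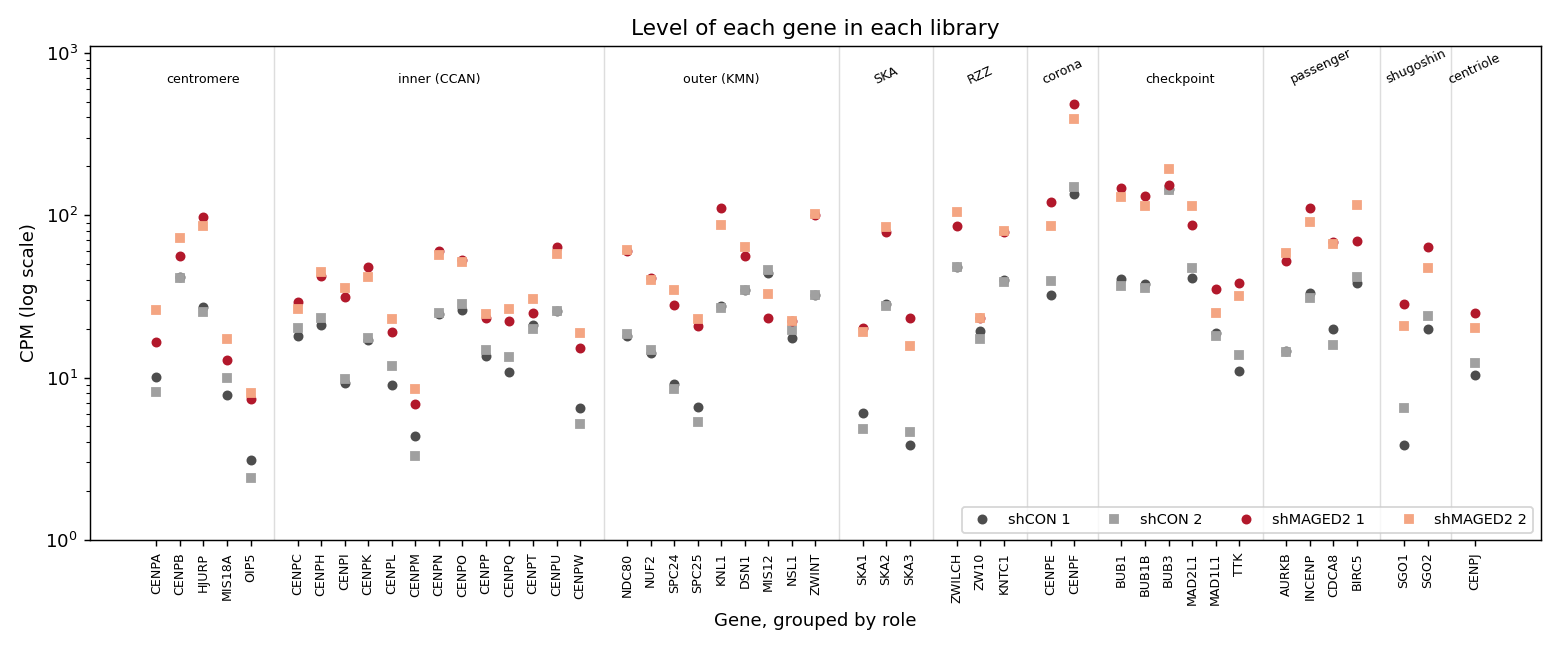
Level of each of the 48 members in each library, in CPM on a log axis, grouped by role; circles are replicate 1 and squares replicate 2, grey for shCON and red or orange for shMAGED2. The red and orange points lie above both grey points for 47 members and below them for MIS12.

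All 4 genes of the chromosomal passenger complex rose. AURKB, its kinase, was at 14.5 and 14.4 CPM in shCON and at 52.1 and 58.4 in shMAGED2, a 3.83-fold rise (log2 1.94, SE 0.13, adjusted p = 0.000839). The scaffold INCENP rose by 1.67 (SE 0.14) and CDCA8 (borealin), which targets the complex to centromeres, by 1.91 (SE 0.15). BIRC5 (survivin), which reads a phosphorylated histone H3 tail, changed least of the 4. It was at 38.1 and 41.3 CPM in shCON and at 69.8 and 115 in shMAGED2, a rise of 1.22 (SE 0.23, adjusted p = 0.0168) with a wide gap between the knockdown libraries, and missed the threshold without shCON replicate 1 (0.0690).

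The shugoshins protect centromeric cohesin until anaphase, and both rose. SGO1 had the largest log2 change of the 48, 2.25 (SE 0.30, adjusted p = 0.00548), from 3.87 and 6.51 CPM in shCON to 28.4 and 20.8 in shMAGED2. Each pair of libraries spread widely for this gene, yet the lowest knockdown library was far above the highest control. SGO1 shares 679 exon bases (17.7%) with the antisense transcript SGO1-AS1, which was not analysed here. SGO2 rose by 1.34 (SE 0.19), from 19.8 and 23.9 to 63.5 and 47.0 CPM. CENPJ, which shares the CENP name but whose protein builds centrioles rather than kinetochores, rose by 0.99 (SE 0.18, adjusted p = 0.0149), from 10.4 and 12.3 to 25.03 and 20.2 CPM. It missed the threshold without shCON replicate 1 (0.113).

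A further 29 genes that act at kinetochores were read beside the 48. They come from a textbook list, chosen with earlier results of these data known. Of these, 17 rose, 0 fell and 12 did not pass, where 12.3% of all genes tested rose and 11.6% fell. The median log2 change of the 29 was 0.68, against 0.003 for all tested genes. The 3 with the smallest p were DLGAP5, a spindle microtubule protein (1.76, SE 0.10), PLK1, a kinase of mitotic entry and kinetochore attachment (2.00, SE 0.13) and SPAG5 (astrin), a stabiliser of attachment (1.54, SE 0.10). For these edgeR gave adjusted p-values of 0.000774 to 0.000839. CENPS, CENPX and ITGB3BP (CENP-R), CCAN subunits outside the 48, did not pass, at 0.33 (SE 0.17), 0.37 (SE 0.16) and 0.36 (SE 0.16); they were singled out with their values known. The microtubule-binding CLASP1 (0.12) and CLASP2 (-0.13) and the phosphatase subunit PPP2R5C (-0.14), also singled out with values known, did not pass either. Nor did CENPV (-0.74, SE 0.58), NDEL1 (-0.43, SE 0.13) and BOD1 (-0.27, SE 0.12), singled out in the same way. Both shMAGED2 libraries lay above both shCON libraries for 22 of the 29 (33% of all genes) and below them for 5 (33%).

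Across the 48 members, the log2 change and the control level, as log2(FPKM + 0.1), had a Pearson r of -0.32 and a Spearman rho of -0.24. This is across genes, which share libraries and are not independent replicates, and the change is computed from the same control libraries as the level. Control levels ran from 1.47 FPKM (SKA3) to 26.3 (BUB3). Replicates of a group did not differ in one direction over the set. In shMAGED2, replicate 1 was the higher library for 22 of 48 members, with a median log2 ratio of -0.02, and in shCON replicate 1 was higher for 22, with a median of -0.01. Exons of 15 members overlap an annotated gene on the opposite strand and 2 overlap one on the same strand, and 7 have a pseudogene of the same name in GENCODE 29, so that part of their reads may be uncertain. An opposite-strand partner of CENPO was ADCY3, which rose by 0.75 (SE 0.11, adjusted p = 0.00646) and shares 27.0% of the exon length of CENPO. IPPK shares 38.0% of the exon length of CENPP on the opposite strand and did not pass (log2 0.08, SE 0.15, adjusted p = 0.742).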

How the data were processed

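The deposited count table holds whole-number read counts per gene, not normalised; the deposited FPKM table holds FPKM values that the authors scaled by gene length and library total. HISAT2, StringTie and SAMtools with hg38 were used, per the submitters' processing notes; the sources used here give no roles, annotation, strand setting or versions. The libraries were made with NEBNext Ultra kits, per the labels' protocols. Members were matched by symbol, with coordinates from GENCODE 29 (hg38, 1-based).

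Counts were tested in edgeR 4.0.16 (R 4.3.3): filterByExpr, TMM scaling, robust quasi-likelihood fit with group as its term, two-sided, Benjamini-Hochberg over 15293 genes, threshold 0.05. SEs come from the F statistic. The test was tried on counts simulated with the same spread in both groups. The library pairs here differ in spread, so that trial cannot show how the test performs on them. DESeq2 1.42.0 and limma 3.58.1 served as alternatives. Those set at the start were other scalings, tests, filters (5 CPM in 2 libraries, or none), log2(FPKM + 1) and log2(FPKM + 0.1), where changes of low genes are understated, a replicate block and left-out libraries. Removal of mitochondrially encoded genes and of loess trends (span 0.3) with GC content and length was added after seeing the data. The members, lists and motifs were chosen with earlier results of these data known. All members are named, with fullest values for the smallest p and the change nearest to 0 in each role and for a fall; from the further kinetochore genes the rule takes the 3 with the smallest p, and any more are marked in the text as singled out with values known, except partners that overlap a member.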

Additional observations from a re-analysis of the deposited data

How the results depend on the processing

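The members that rose numbered 38 to 43 and all 48 kept the sign of their change in each alternative run with all 4 libraries, and 30 to 45 rose with 1 library left out. MIS12 was the 1 member that fell, and 0 fell with library size alone. With 1 library left out, 0 fell without either shCON replicate and 1 without either shMAGED2 replicate. The median change was 1.25 with upper-quartile factors, 1.23 with library size alone, 1.12 and 1.25 on the log2(FPKM + 1) and log2(FPKM + 0.1) scales, 1.27 with the filter of 5 CPM, and 1.28 to 1.34 with 1 library left out. Of the 29 further kinetochore genes 1 fell with upper-quartile factors, with library size alone, in DESeq2, on the log2(FPKM + 1) scale and with no count filter, and 0 to 2 fell with 1 library left out. Over all genes, 1244 rose on the log2(FPKM + 0.1) scale, and 567 to 3725 rose and 533 to 3722 fell with 1 library left out. These fits take the spread of a lone library from the other group. The cause was not tested. With the replicate block 42 members rose and 1 fell, CENPC was lost and MIS18A gained (adjusted p = 0.037). Replicate 1 minus replicate 2 correlated at -0.018 between the groups over genes. This cannot settle whether same numbers pair the libraries, since the shMAGED2 pair differed far more than the shCON pair. Removing GC content and length trends left 43 members that rose and 1 that fell. CENPP missed the threshold on both FPKM scales, and 13 and 9 members missed it without shCON replicates 1 and 2. The lowest control counts were 71 and 109 for OIP5, 96 and 152 for CENPM, 134 and 135 for SKA3, 135 for SGO1 (shCON 1) and 142 for SKA1 (shCON 2). At these counts the relative counting error is the largest among the members in shCON.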
